A study of Mus musculus with 84 samples.

Results

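Microglia are the resident macrophages of the brain, and the 31 genes described here are transcripts by which these cells are recognised in brain tissue. They were chosen by name as a list of microglia genes, and all 31 were found among the 43629 genes of the deposited count table, 30 by symbol and Adgre1 through its identifier, since the table calls it Emr1. RNA was sequenced from the laser-dissected central nucleus of the amygdala (CeA) of 84 heterogeneous stock Collaborative Cross (HS-CC) mice, 43 females and 41 males. HS-CC mice are an outbred stock in which every animal carries its own mixture of the founder strains' alleles, so animals differ at many loci. The median age was 15 weeks at the start in both sexes, and each animal's own age is not given in the sources used here. Every mouse was housed alone and chose between water and 10% ethanol for 13 weeks, with ethanol available until the brain was taken. There was no group without ethanol, so expression was compared along the amount drunk and not between drinking and abstinent mice. Up to 3 animals came from 1 family, and the family of each animal is not given in the sources used here, so the animals were not fully independent.

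Microglia live from embryonic life onward on signals from neighbouring cells. They need the receptor Csf1r to survive, sense fractalkine from neurons through Cx3cr1 and nucleotides through P2ry12, and tag synapses and debris with the complement protein C1q, which they make themselves. Their identity depends on the transcription factors PU.1 (gene Spi1) and Sall1 and on TGF-beta, and in damaged tissue they lower genes such as P2ry12 and Tmem119 and raise lysosomal and lipid-handling genes. Microglia in the amygdala have been studied in alcohol drinking because ethanol can shift their shape and their immune transcripts. In a bulk sample such as these, fewer microglia and less microglial RNA per cell cannot be told apart.

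The start sites of 6 members are shown first, because the expression values group them. C1qb and C1qc lie side by side and moved together, P2ry12 and P2ry13 lie side by side and moved together, and Fcrls and Mertk did not follow the other members. Each sequence is the RefSeq promoter window of build GRCm38.p6, from 250 bases before to 50 bases after the transcript start, written 5′ to 3′ on the gene's strand. Capitals mark GAGGAA, or its reverse complement TTCCTC, a form of the sites that PU.1 binds. Forms without these letters were not searched. The windows are chr4:136886151-136886450 for C1qb, chr4:136892865-136893164 for C1qc, chr3:59262936-59263235 for P2ry12, chr3:59210833-59211132 for P2ry13 and chr3:87263475-87263774 for Fcrls, all on the minus strand, and chr2:128698665-128698964 for Mertk on the plus strand.
C1qb: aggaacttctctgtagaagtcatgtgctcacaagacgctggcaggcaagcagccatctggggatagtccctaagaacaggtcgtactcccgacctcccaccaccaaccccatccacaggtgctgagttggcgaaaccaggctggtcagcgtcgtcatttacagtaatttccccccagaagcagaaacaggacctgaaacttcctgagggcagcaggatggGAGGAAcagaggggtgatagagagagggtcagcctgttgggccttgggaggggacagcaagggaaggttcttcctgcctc
C1qc: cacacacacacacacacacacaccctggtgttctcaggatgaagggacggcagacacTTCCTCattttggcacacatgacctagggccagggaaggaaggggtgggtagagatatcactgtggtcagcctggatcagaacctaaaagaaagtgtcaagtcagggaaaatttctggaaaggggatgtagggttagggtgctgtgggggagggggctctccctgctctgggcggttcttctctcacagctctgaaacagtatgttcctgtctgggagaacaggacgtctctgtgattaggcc
P2ry12: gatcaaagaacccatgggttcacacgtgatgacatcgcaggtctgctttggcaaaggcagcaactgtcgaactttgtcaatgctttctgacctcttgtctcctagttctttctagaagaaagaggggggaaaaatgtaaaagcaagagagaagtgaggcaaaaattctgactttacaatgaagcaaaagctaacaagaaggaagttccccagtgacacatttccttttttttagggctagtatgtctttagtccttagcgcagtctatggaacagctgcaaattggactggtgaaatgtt
P2ry13: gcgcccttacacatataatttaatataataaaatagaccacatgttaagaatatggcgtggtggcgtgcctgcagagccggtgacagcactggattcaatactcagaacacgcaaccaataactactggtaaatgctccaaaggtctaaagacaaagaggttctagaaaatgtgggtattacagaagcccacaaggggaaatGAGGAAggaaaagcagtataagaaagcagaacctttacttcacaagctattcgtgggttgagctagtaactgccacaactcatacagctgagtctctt
Fcrls: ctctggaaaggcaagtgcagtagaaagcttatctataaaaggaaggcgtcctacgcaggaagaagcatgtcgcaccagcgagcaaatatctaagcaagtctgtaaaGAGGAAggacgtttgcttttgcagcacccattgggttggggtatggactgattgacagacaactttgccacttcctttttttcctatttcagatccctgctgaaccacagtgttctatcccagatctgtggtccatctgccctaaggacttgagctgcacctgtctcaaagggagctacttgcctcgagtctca
Mertk: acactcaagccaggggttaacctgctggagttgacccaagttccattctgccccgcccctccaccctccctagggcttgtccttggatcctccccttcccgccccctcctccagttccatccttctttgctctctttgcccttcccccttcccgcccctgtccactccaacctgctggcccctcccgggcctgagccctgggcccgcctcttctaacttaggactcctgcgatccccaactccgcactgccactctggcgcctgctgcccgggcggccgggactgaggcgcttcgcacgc

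GAGGAA began 30 bases before the start in C1qb, 48 before it in P2ry13 and 144 before it in Fcrls. In C1qc it lay on the other strand, farther upstream. Its letters were not in the windows of P2ry12 and Mertk. Of the 31 members, 24 had a promoter in the RefSeq table, and 16 of these 24 (66.7%) held GAGGAA on either strand. The same letters stood in 28.3% of all 32851 promoters of that length. Counted per gene, as for the members, they stood in 31.3% of 27025 genes and in 30 of 55 other microglia and myeloid genes. The longer form GAGGAAGT, which contains the shorter one, was in 5 of the 24 members (20.8%), C1qc, Cd53, Ctss, Inpp5d and Slco2b1. It was in 3.2% of all promoters and 3.69% of all genes. Of the members that followed the others least, Fcrls, Ptprc and Cd33 held GAGGAA and Mertk, Sall1 and Lyz2 did not. A match of letters is a description and not a bound site.

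Libraries held 24118965 to 36924667 counts in females and 24829435 to 42036566 in males. The 31 genes together took 0.0601% to 0.1256% of the counts of a library, the lowest count of any member in any library was 35, and all 31 passed the filter on low counts that left 16320 genes for testing. Their summed level had a median of 831.1 CPM (counts scaled to library size) in females and 817.7 CPM in males, with a range over all animals of 612.4 to 1225 CPM. Of the genes that mark other immune cells, 3 of 15 for monocytes and neutrophils and 5 of 17 for lymphocytes passed the same filter, and the medians of the genes in each of these lists lay near 0 (0.0652 and 0.0319 CPM). Summed over each list, the level was 5.03 to 15.9 CPM for monocytes and neutrophils and 4.57 to 92.5 CPM (median 10.2) for lymphocytes. Markers of border macrophages, which line the brain's vessels and meninges, were measurable, with 10 of 12 tested and a summed level of 23.77 to 95.26 CPM. RNA of border macrophages and of blood cells can contribute to members that these cells also make, and its part was not tested.

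Levels of different genes were compared per length, as RPKM, the CPM divided by the kilobases of exon, since the members' exons differ in length. The complement genes and the lysosomal protease led. C1qa, a chain of C1q (ENSMUSG00000036887, chromosome 4 from 136895917 to 136898803), averaged 56.22 ± 16.38 RPKM (SD, n = 84), Ctss, which encodes the protease cathepsin S, 48.30 ± 12.07, C1qb 45.55 ± 13.38 and C1qc 20.73 ± 6.90. Between C1qb and C1qc stood Tyrobp, the signalling adaptor of Trem2, with 28.18 ± 7.49 RPKM, and the survival receptor Csf1r with 25.24 ± 3.91. Genes of membrane proteins followed, with 19.71 RPKM for P2ry12, 17.76 for Selplg, a selectin ligand, 14.50 for Tmem119 and 12.60 for Cx3cr1. The receptor gene Gpr34 stood lower, at 7.765, below Ly86, Laptm5 and Cd68. At the low end were Inpp5d, a lipid phosphatase of immune receptors (1.90), Adgre1, the F4/80 antigen (1.48), Cd33, an inhibitory lectin (1.03), and Ptprc, the CD45 phosphatase of white blood cells (0.316). The remaining members, from Ly86 at 10.58 to Slco2b1, Itgam and Fcrls near 3, lay between.

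The order was mostly gradual. Of the 30 pairs of neighbours in it, 26 differed by less than the SD of their difference over animals. The exceptions were C1qb over Tyrobp, Selplg over Tmem119, Adgre1 over Cd33 and Cd33 over Ptprc, the last of these in 84 of 84 animals. That last order holds per length only. Ptprc has 18313 exon bases against 2571 in Cd33, and its median CPM was the higher one (4.78 against 2.57).

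**Figure D1:**
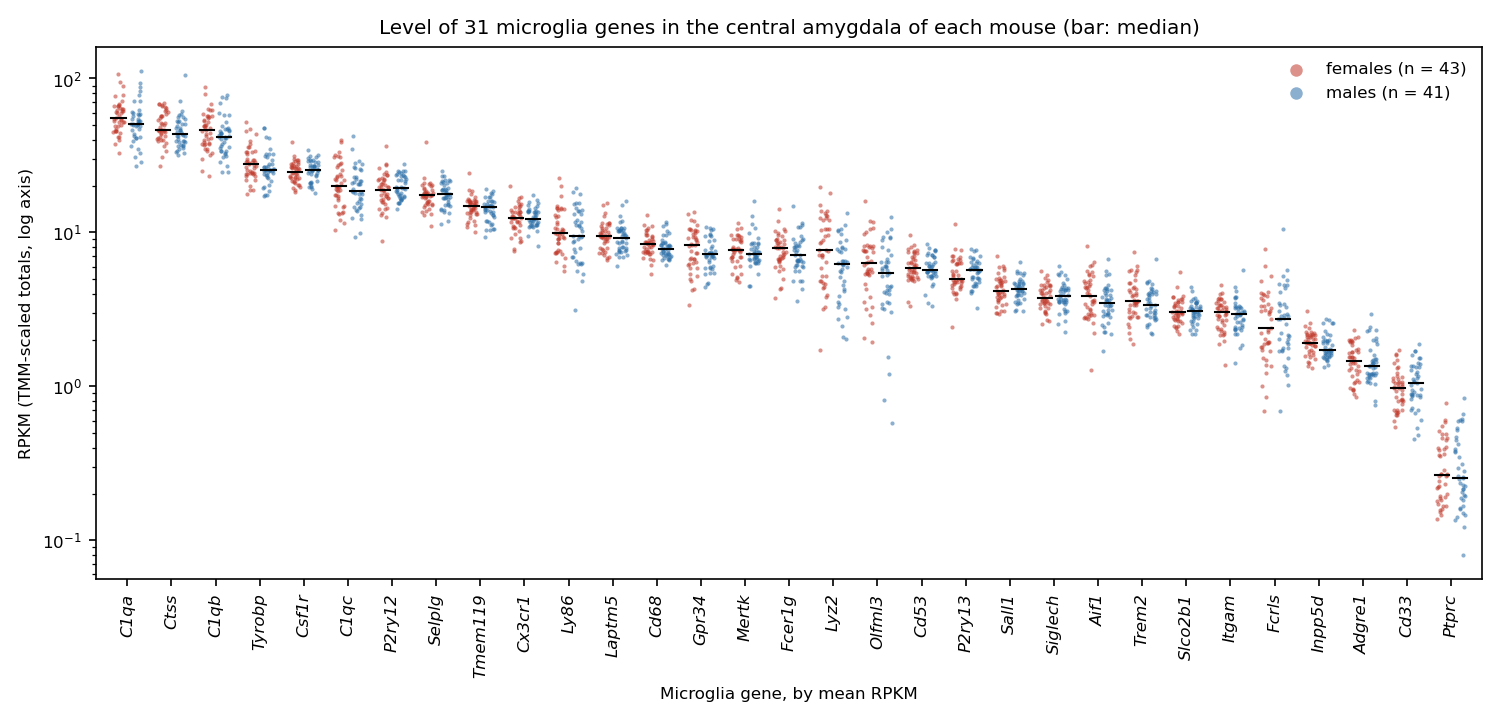
Level of each of the 31 genes in every mouse, in RPKM on a log axis, ordered by mean, with females left of males and a bar at each sex's median. The sexes overlapped for every gene, and Olfml3, Lyz2, Fcrls and Ptprc spread more widely over animals than their neighbours.

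Animals differed more in a few of these genes than in most. For 25 of the 31 members the highest CPM of any animal was under 5 times the lowest, and Csf1r had the narrowest range, with 88.88 to 188.8 CPM (median 120.2) in females and 87.85 to 166.4 CPM (median 124.5) in males, a ratio of 2.15 over all animals. The ratio exceeded 10 for 4 members. It was 27.7 for Olfml3, a secreted glycoprotein enriched in microglia (ENSMUSG00000027848, chromosome 3 from 103733700 to 103738001), which ran from 7.78 to 64.6 CPM (median 25.5) in females and from 2.34 to 50.7 CPM (median 22) in males. Fcrls, an Fc receptor-like protein of rodent microglia, had a ratio of 15.2, Lyz2, the macrophage lysozyme, 11.4, and Ptprc 10.5. The values of these 4 genes ran on without a gap that set more than a few animals apart at either end, and the animals at the extremes were different for each gene, male replicate 3 and female replicate 41 for Olfml3 but male replicates 39 and 32 for Fcrls. Olfml3 was singled out after its values were seen.

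Most members rose and fell together over animals. Among the 465 pairs of members, the median Pearson correlation (r) of log2 CPM was 0.266, with an interquartile range of 0.0709 to 0.432, and 377 pairs were positive. By permutation (100000 draws, Benjamini-Hochberg adjusted over the 465 pairs), 249 positive and 12 negative pairs had an adjusted p under 0.05. The share of passing pairs among other tested genes was not computed, so these counts have no base beside them. With the members searched further below, 0% (Fcrls) to 41.3% (Sall1) of 16319 other genes passed by rho, adjusted over those genes. The median r was 0.285 within females, 0.245 within males. Sample titles carry sample-sheet numbers in 4 ascending blocks of libraries, called runs here, which may be batches, and the medians by run were 0.251, 0.307, 0.264 and 0.280.

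C1qa and C1qb, chains of the same protein, had r = 0.865 (rho 0.861), and 0.868 once the 2 most extreme animals were left out. C1qb and C1qc, which lie 3617 bases apart, had r = 0.821 and C1qa and C1qc, 2852 bases apart, 0.684. P2ry12 and P2ry13, nucleotide receptors 5389 bases apart on chromosome 3, had r = 0.823 (rho 0.790), and 0.758 without the 2 extreme animals. Tyrobp had r = 0.774 with Trem2, the lipid receptor that signals through it, 0.828 with C1qa and 0.750 with Ctss. Csf1r had r = 0.753 with Selplg and 0.748 with Tmem119. Each of the pairs named here had a permutation p of 1e-05 for r, the smallest that the draws can give, and an adjusted p of 4.7e-05. Within the runs, r of C1qa with C1qb was 0.825 to 0.895 and that of P2ry12 with P2ry13 0.766 to 0.829, so both pairs held within each run. At the other end, Gpr34 and Mertk had r = -0.314 (adjusted permutation p = 0.00843), Aif1 and Sall1 -0.313 (0.00777), and Trem2 and Ptprc -0.302 (0.0113).

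**Figure D2:**
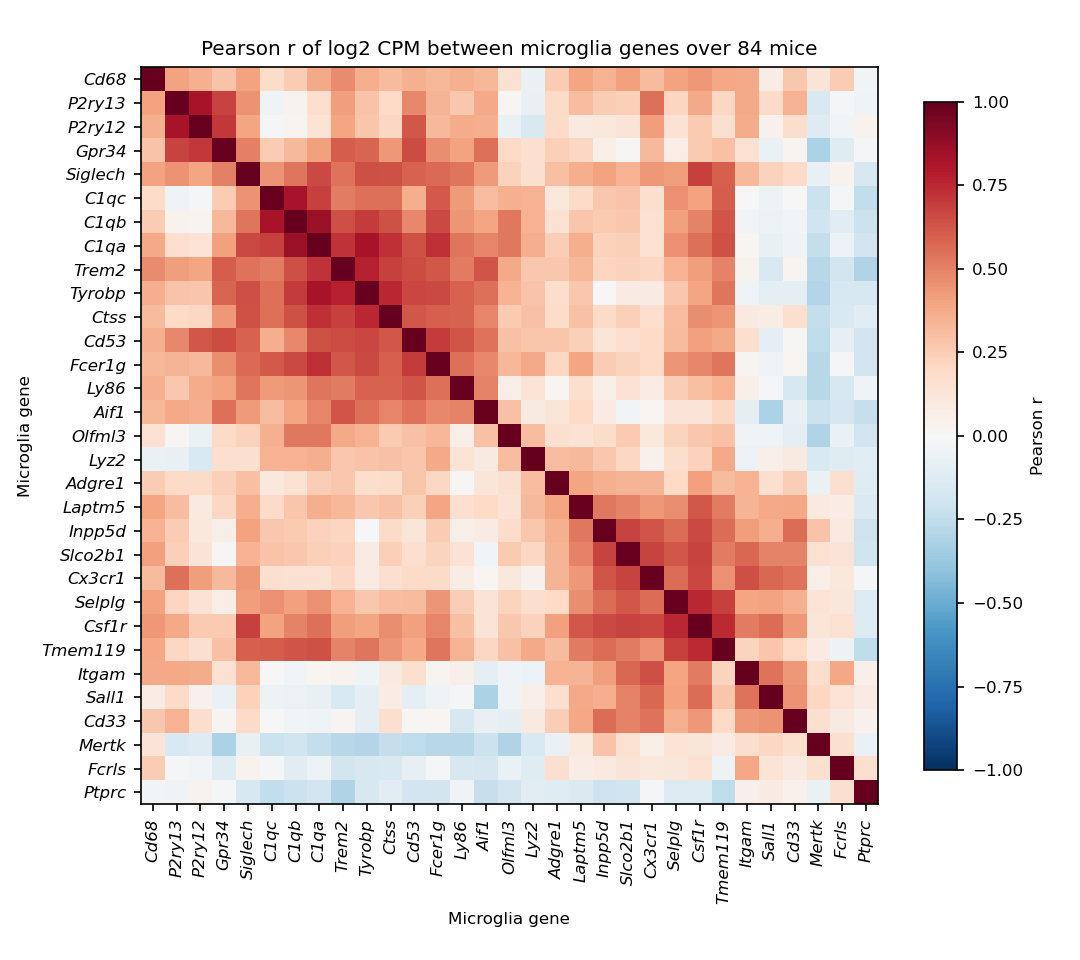
Pearson r of log2 CPM for every pair of the 31 genes over 84 mice, with similar genes placed side by side and colours from -1 (blue) to 1 (red). The C1q genes, Tyrobp, Trem2 and their neighbours form a red block, up to 0.865 for C1qa with C1qb, and the rows of Fcrls, Mertk and Ptprc are mostly pale or blue.

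To rank the members, each was set against the mean of the other 30, and these r are descriptions over 84 animals that share libraries and normalization. Csf1r was nearest to the rest (r = 0.777, with 0.808 in females and 0.803 in males). C1qa (0.754), Siglech, a microglial sialic acid-binding lectin (0.740), and Tmem119 (0.706) followed. Siglech had 8.66 to 19.0 CPM (median 12.7) in females and 7.58 to 20.5 CPM (median 13.1) in males, and Tmem119 23.1 to 56.0 CPM (median 34.6) in females and 21.7 to 44.6 CPM (median 33.6) in males. The sexes overlapped in both. In all, 18 members had r above 0.5 over all animals, 20 had it in females alone and 16 in males alone, and 28 had r above 0 in each of the 4 runs. The shared level itself, the mean of all 31 centred log2 values, ran from -0.399 in female replicate 38 to 0.495 in female replicate 19, with a median of 0.0242 in females and -0.0432 in males.

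Genes outside the list followed the same level. Of 16289 tested genes that are no member, 125 (0.767%) had r above 0.5 with the mean of the members. Among the nearest were Spi1, which encodes PU.1 (r = 0.750), Hcls1, a cytoskeletal protein of blood cells (0.717), Ncf1 of the NADPH oxidase (0.705) and Vsir, an immune checkpoint receptor (0.701). In a wider list of other microglia and myeloid genes, 29 of the 75 tested had r above 0.5, and the score of that list, the mean of its members' standardized levels, had r = 0.850 with the shared level. The ligands and controls that other cells supply to microglia, among them Il34, Cx3cl1 and Cd47, had a median r near 0 (-0.00939, 22 genes), and 0 of them exceeded 0.5. Of genes that rise in activated microglia, 1 of 27 exceeded 0.5, Ncf1.

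The shared level also moved with the cellular makeup of the dissected piece. Of the scores of other cell types, that of monocytes and neutrophils had the highest r with it, 0.487 (rho 0.507), with 0.507 in females and 0.450 in males and 0.582, 0.806, 0.406 and 0.278 in the runs. That score rests on the few genes of its list that were tested, and its part in the shared level was not tested. The shared level had r = 0.436 with the score of myelinating oligodendrocyte genes, 0.384 with that of striatal medium spiny neuron genes and -0.410 with that of cortical and basolateral excitatory neuron genes. For oligodendrocyte precursors r was 0.349, for astrocytes and for endothelial and mural cells 0.336, and for lymphocytes 0.242. Its r was -0.349 with the ependymal score and -0.241 with the choroid plexus score. The border macrophage score had r = 0.161, and the library's total count -0.00456. The library's length slope is that of its log2 CPM on log2 exon bases, fitted together with GC content over 15863 genes outside all lists used here. With it, the shared level had r = -0.274 over all animals and -0.392, 0.227, -0.185 and -0.518 in the runs, so the sign differed in the second run. Without the 5 libraries highest in choroid plexus genes the median r of the member pairs was 0.233. The part that the makeup of the pieces had in the co-variation was not tested further.

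The members' second pattern followed the length of their exons more closely. A principal component analysis of the 31 genes gave a shared axis with 33.96% of the variance, on which 28 members had weights of the same sign and which had r = -0.341 with the length slope, and a second with 15.8%. The second axis set Sall1, Itgam, Cx3cr1, Cd33, Slco2b1 and Inpp5d, with a median of 5432 exon bases, against Tyrobp, Aif1, Ly86, Trem2, C1qa and C1qb, with 1064. Trem2 was an exception at that end, with 4946 exon bases and r = -0.584 with the length slope. Over animals the second axis had r = 0.839 (rho 0.847) with the length slope. Of the 15 members longer than the median of 2524 exon bases, 12 correlated positively with that slope, against 1 of the 16 others. The third axis, with 9.38% of the variance, set P2ry12, P2ry13, Gpr34, Cd53, Itgam and Aif1 (median GC content 42.3%) against C1qc, Lyz2, C1qb, Olfml3, Tmem119 and C1qa (57.4%) and had r = -0.703 (rho -0.731) with the library's GC slope. After both slopes were removed from each gene, the median r of pairs was 0.355 and 406 of 465 were positive. The negative pair of Aif1 and Sall1 joins the ends of the length axis. What set the slopes of a library was not tested.

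**Figure D3:**
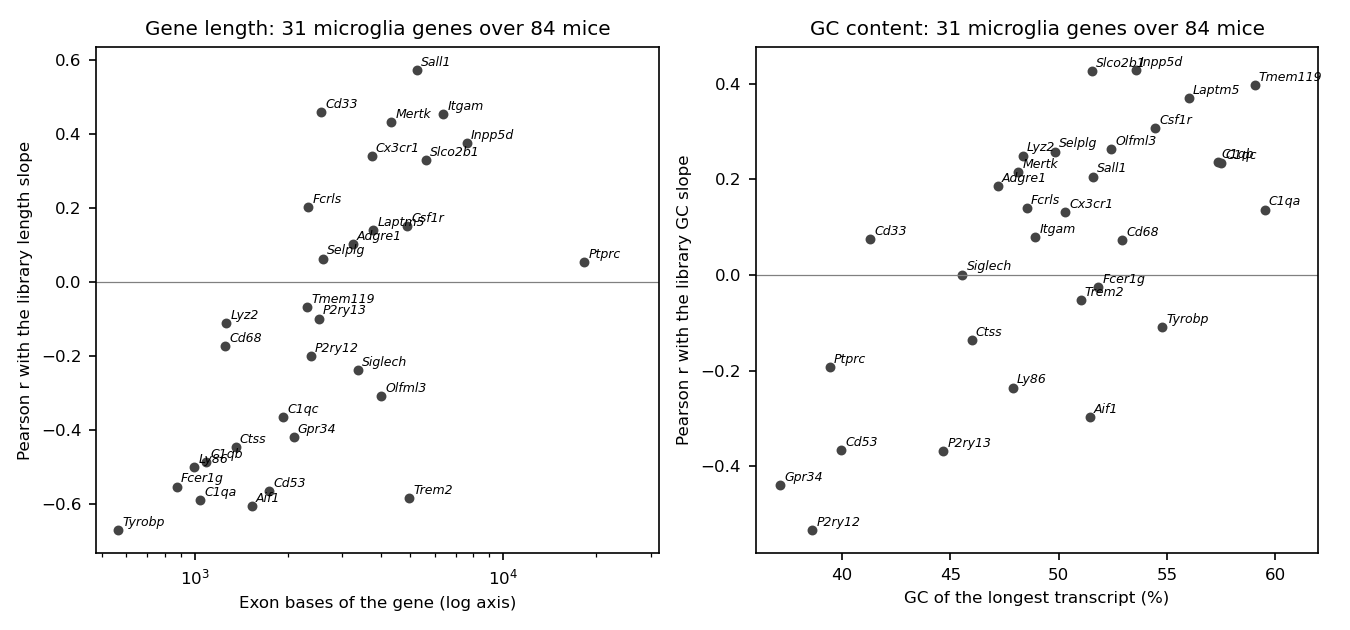
Left, each gene's r with the length slope of the libraries against its exon length, and right, its r with their GC slope against its GC content, one point per gene over 84 mice. Genes longer than 2524 exon bases lie mostly above 0 (12 of 15) and shorter ones mostly below (1 of 16 above), while the GC panel shows a weaker split (11 of 15 against 9 of 16 above 0).

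The 6 members least like the others, by r before the length and GC slopes were removed, were Lyz2, Cd33, Sall1, Fcrls, Mertk and Ptprc. Olfml3 came next, with r = 0.328. After the slopes were removed Olfml3 had 0.233, below Lyz2 with 0.257, while Sall1 had 0.510 and Cd33 0.508. For each of the 6, the 5 tested genes nearest by Spearman rho, of either sign, were sought over all 16319 others. P-values came from 100000 permutations and were adjusted over those genes. The raw p was 1e-05, the smallest the draws can give, for the companions of all but Fcrls (4e-05 to 8e-05 by rho). Passing was common for some of these members. Of the 16319 genes, 6747 (41.3%) had an adjusted p of rho under 0.05 with Sall1, 4032 (24.7%) with Mertk, 3736 (22.9%) with Cd33, 2544 (15.6%) with Lyz2, 1467 (8.99%) with Ptprc and 0 with Fcrls, so the genes named are the nearest of many and their p does not set them apart. Where the adjusted p of rho is given once for a member, it holds for all 5, and by r the adjusted p was 0.00183 or smaller, again except for Fcrls (0.0816 to 0.188). All 30 companions kept the sign of r within each of the 4 runs and without the 2 most extreme animals. Genotypes were not analysed here, so whether a departure follows a founder allele was not tested.

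Ptprc (ENSMUSG00000026395, chromosome 1 from 138062861 to 138175708) had the lowest r with the mean of the others (-0.202, and -0.0933 to -0.5002 within the runs). It ran from 2.53 to 14.2 CPM (median 4.85) in females and from 1.48 to 15.4 CPM (median 4.68) in males, so both sexes spanned nearly the same range. Its companions were the protease gene Prss23 (rho 0.660, r 0.538), the transcription factor gene Snai2 (0.649, 0.643), C1ql3, a synaptic protein that shares a domain with C1q (0.628, 0.533), the cartilage protein gene Ucma (0.622, 0.619) and the GATA cofactor gene Zfpm2 (0.621, 0.599), with an adjusted p of 0.00168 by rho and 0.00183 by r. Without the 2 extreme animals r was 0.552 to 0.647, and within the runs it was positive for all 5. Ptprc codes for a phosphatase that all white blood cells carry, and at 0.316 RPKM it was the lowest member per length. It holds 18313 exon bases, and its median CPM over all animals (4.78) was above those of Adgre1 (4.60) and Cd33 (2.57).

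Mertk (ENSMUSG00000014361, chromosome 2 from 128698956 to 128802894) encodes a receptor for the engulfment of dying cells, which astrocytes make as well as microglia. It had 20.6 to 49.9 CPM (median 33.3) in females and 19.3 to 69.3 CPM (median 31.2) in males, highest in male replicate 18. Its r with the mean of the others was -0.184, and -0.135 to -0.190 within the runs. The companions were Syne1, a nuclear envelope protein (rho 0.599, r 0.583), A730036I17Rik (0.589, 0.643), Mlxip (0.582, 0.565), the mitochondrial carrier gene Slc25a23 (0.567, 0.598) and, inversely, the methyltransferase gene Prmt1 (-0.567, -0.547), with an adjusted p of 0.000897 by rho. A730036I17Rik lies within 2 Mb of Mertk, at 129218969 to 129235604 on chromosome 2, and within the runs its r with Mertk was 0.476 to 0.852. It was the 1 companion of the 30 that was also the nearest of its member's chromosome neighbours, 65 of which were tested for Mertk. After run means were removed, it alone of the 5 stayed among the nearest 5. For the other members searched, except Fcrls, the neighbour with the largest rho of either sign also passed. These were Bax for Cd33 (rho -0.464), Crb1 for Ptprc (0.457), Tspan8 for Lyz2 (0.420), Brd7 for Sall1 (-0.363) and Trim33 for Olfml3 (-0.527). Their adjusted permutation p-values were 0.000902 to 0.00425.

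Fcrls (ENSMUSG00000015852, chromosome 3 from 87250758 to 87263738) had r = 0.00352 with the mean of the others (-0.161 in females and 0.180 in males). It ran from 1.63 to 18.2 CPM (median 5.61) in females and from 1.61 to 24.5 CPM (median 6.40) in males. Low and high animals occurred in both sexes. No gene passed as a companion. The 5 nearest were Chd3 (rho 0.438, r 0.409), A930005H10Rik (-0.432, -0.418), Slc22a21 (-0.429, -0.423), Tagap1 (-0.428, -0.392) and Gm9726 (-0.423, -0.431), with adjusted permutation p-values of rho of 0.245 to 0.261, and 0 of 16319 genes had an adjusted p under 0.05. The nearest gene within 2 Mb, 1500004A13Rik, had rho = 0.387 (adjusted permutation p = 0.388).

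Sall1 (ENSMUSG00000031665, chromosome 8 from 89027248 to 89044162), the transcription factor that holds microglial identity, had 15.5 to 36.9 CPM (median 21.9) in females and 16.1 to 33.6 CPM (median 22.5) in males. Its r with the mean of the others was 0.220 and became 0.510 once the length and GC slopes were removed. Its companions were the phosphatase gene Phlpp1 (rho 0.766, r 0.788), the receptor gene Notch1 (0.765, 0.757), Sash1 (0.764, 0.778), the kinase gene Hipk2 (0.752, 0.744) and Pag1 (0.751, 0.745), with an adjusted p of 9.94e-05 by rho, and 1272 genes had a rho with Sall1 beyond 0.5 in either direction. Each of the 5 held within the runs, with r from 0.634 to 0.895. Cd33 had 1.40 to 4.41 CPM (median 2.52) in females and 1.17 to 4.82 CPM (median 2.70) in males, and its r likewise was 0.256 before and 0.508 after removal of the slopes. Its nearest genes were A430005L14Rik (rho -0.581, r -0.593), the elongation factor gene Elof1 (-0.578, -0.576), the kinase gene Cdc42bpa (0.566, 0.567), the mitochondrial ribosome gene Mrpl49 (-0.559, -0.522) and Glcci1 (0.550, 0.508), with an adjusted p of 0.000902 by rho. After run means were removed each of these 5 had left its nearest 5, with rho then 0.473 to 0.517 in size. Sall1 and Cd33 had r = 0.572 and 0.458 with the length slope. Companions were not sought again after the length and GC slopes were removed.

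Lyz2 (ENSMUSG00000069516, chromosome 10 from 117277334 to 117282274) had 2.19 to 24.9 CPM (median 9.71) in females and 2.58 to 16.9 CPM (median 7.89) in males. The highest animals were females, and the ranges otherwise overlapped. Lyz1, a near-identical copy, held a median of 0.0548 CPM and at most 2.68 CPM, and reads of the copies may be divided between them. Lyz2 had r = 0.0744 with the mean of the others in females and 0.540 in males, a difference that was not tested. Its companions were the lipid carrier gene Apod (rho 0.686, r 0.700), Emp3 (0.662, 0.684), the retinal dehydrogenase gene Aldh1a1 (0.649, 0.604), Cbr2 (0.648, 0.617) and the mannose receptor gene Mrc1 (0.636, 0.675), with an adjusted p of 0.000846 by rho. Cbr2 and Mrc1 belong to the list of border macrophage markers. Mrc1 had a median of 3.49 CPM in females and 2.83 CPM in males.

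**Figure D4:**
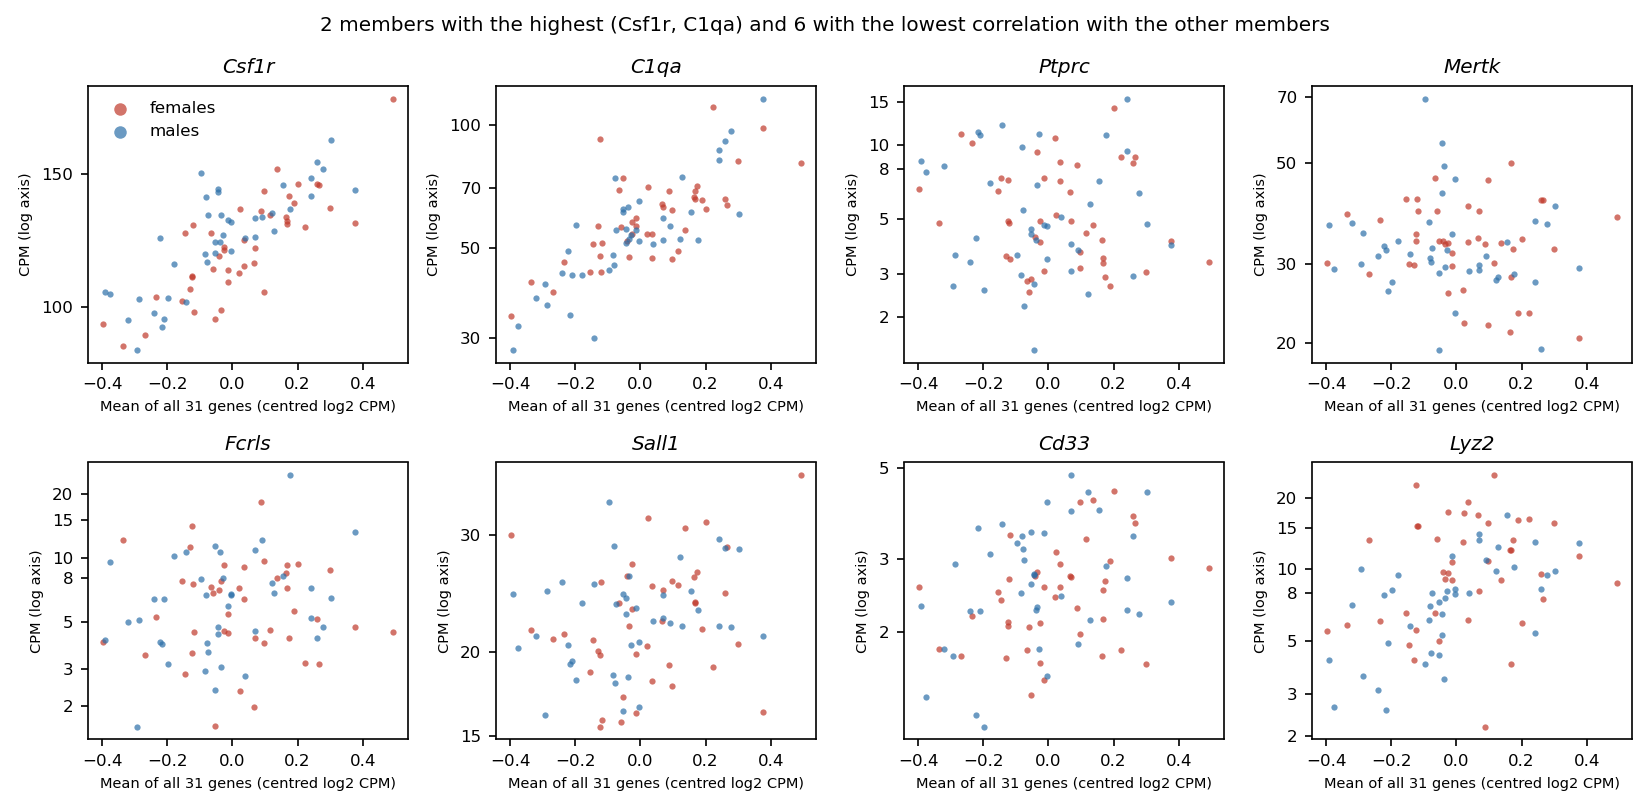
CPM (log axis) of 8 genes in each mouse against the mean of all 31 genes (centred log2 CPM), females and males in different colours. Csf1r and C1qa climb with the mean, Fcrls, Mertk and Ptprc show no climb (r with the other members 0.00, -0.18 and -0.20), and Sall1, Cd33 and Lyz2 a loose one (0.22, 0.26 and 0.31).

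Reads of neighbouring genes could enter some members. Csf1r shares 871 exon bases with Hmgxb3 on the opposite strand, Slco2b1 shares 418 with Gm15635 on the opposite strand, and Olfml3 shares 110 with BC027582 on its own strand. P2ry12 and P2ry13 lie inside Med12l and Gpr34 inside Cask, each on the opposite strand. The strand setting of the counting is not given in the sources used here, so reads of such partners may not be separated. Over animals Csf1r had r = -0.0777 with Hmgxb3, P2ry12 had -0.141 with Med12l, and Gpr34 had 0.318 with Cask. These partners were chosen after the members' values were seen.

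The question of the study was how expression relates to ethanol preference, the volume drunk as ethanol over all volume drunk. Mean preference over 13 weeks was 0.272 ± 0.170 (SD, n = 43, 0.0435 to 0.759) in females and 0.210 ± 0.152 (SD, n = 41, 0.0262 to 0.713) in males. Slopes of the microglia genes on preference were mostly negative and small, and no single gene passed. In edgeR's quasi-likelihood test, 29 of the 31 slopes on mean preference in all animals were below 0, against 50.8% of the 16320 genes tested, and the median slope was -0.148 on the log2 scale per 0.5 rise in preference, against -0.0016 for all genes. After Benjamini-Hochberg adjustment over all genes 0 members passed with edgeR, 0 with DESeq2 and 0 with limma-voom, as did 0% of all genes with each. At an unadjusted p under 0.05 edgeR counted 5 members, against 3.94% of all genes. That count was 1 (1.54% of all genes) without the 5 libraries highest in choroid plexus genes, 1 (1.94%) with the neuron and ependymal scores as covariates and 2 (3.33%) with limma-voom, and it reached 8 (4.15%) with run as a covariate. Since the members move together, 29 slopes of a sign are not 29 separate results.

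The members with the smallest p were Laptm5, C1qa and Cd68. Laptm5, a lysosomal membrane protein of blood cells, had 22.95 to 60.28 CPM over all animals, and its slope was -0.24 ± 0.10 (SE). In the 11 females with the highest preference it had 27.2 to 43.7 CPM (median 32.2), against 24.9 to 58.7 CPM (median 35.3) in the 11 with the lowest. In the 10 males with the highest preference it had 22.95 to 40.56 CPM (median 31.25), against 26.2 to 60.3 CPM (median 36.2) in the 10 with the lowest. High and low preference overlapped widely in both sexes, and the highest values lay among the animals with low preference in each. C1qa, with a slope of -0.28 ± 0.13, had 33.9 to 98.0 CPM (median 54.0) in the 11 females with the highest preference, against 43.5 to 110.6 CPM (median 65.3) in the 11 with the lowest. Among males C1qa reached 40.6 to 55.4 CPM (median 48.5) in the 10 with the highest preference, against 28.05 to 116.0 CPM (median 60.8) in the 10 with the lowest. The males with high preference lay inside the range of those with low preference.

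Cd68, a lysosomal protein of macrophages, had a slope of -0.17 ± 0.08. It had 6.71 to 13.1 CPM (median 10.6) in the 11 females with the highest preference, against 8.45 to 16.2 CPM (median 10.2) in the 11 with the lowest, so its female medians ran the other way. In males it had 8.39 to 10.7 CPM (median 9.23) in the 10 with the highest preference, against 8.95 to 14.2 CPM (median 9.57) in the 10 with the lowest. Ctss and Fcrls, the other members at an unadjusted p under 0.05, had -0.23 ± 0.11 and -0.53 ± 0.26. All 5 had an edgeR adjusted p of 0.9995. The positive slopes were those of Olfml3 (0.29) and P2ry12 (0.02). Over all members, the median CPM was lower in the animals with the highest than in those with the lowest preference for 27 of 31 genes in females (11 against 11) and 25 of 31 in males (10 against 10). The share of all genes with a lower median was not computed, so these counts have no base beside them. The shared level had r = -0.209 (rho -0.228) with mean preference, -0.251 in females and -0.244 in males. Within the 4 runs r was 0.0296, -0.523, -0.426 and -0.102, so the relation was not seen in the first run and was weak in the fourth.

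In females alone, 28 of 31 slopes on mean preference were negative (48.4% of all genes) with a median of -0.137, and 1 member lay at an unadjusted p under 0.05, against 6.95% of all genes. That was Ly86, which encodes a partner of the receptor Cd180. It had 5.57 to 14.3 CPM (median 8.51) in the 11 females with the highest preference, against 6.04 to 22.5 CPM (median 10.6) in the 11 with the lowest, a slope of -0.46 ± 0.20 (edgeR adjusted p = 0.616). Selplg (-0.21 ± 0.13) and Csf1r (-0.16 ± 0.10) came next. In males alone 26 slopes were negative (49% of all genes) with a median of -0.133, and 1 member lay at an unadjusted p under 0.05, against 1.65% of all genes. In each sex edgeR, DESeq2 and limma-voom called 0 members, and over all genes 0% except for DESeq2 in males (0.0123%).

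Fcrls had the smallest p in males. It had 1.61 to 6.66 CPM (median 3.81) in the 10 males with the highest preference, against 2.39 to 24.5 CPM (median 6.61) in the 10 with the lowest. Its slope in males was -1.22 ± 0.36 (edgeR unadjusted p = 0.00158, adjusted 0.9999). The males with the lowest and the highest Fcrls were left out in turn, and the slope was -1.14 without male replicate 39 and -0.98 without male replicate 32. In females the slope of Fcrls was -0.01 ± 0.34. There it had 2.36 to 18.2 CPM (median 4.53) in the 11 with the highest preference, against 3.22 to 9.22 CPM (median 6.37) in the 11 with the lowest. The term for a sex difference in slope, female minus male, was 1.22 ± 0.50 for Fcrls (edgeR unadjusted p = 0.0159, adjusted 0.999) and did not pass. Itgam, the CD11b integrin, and Laptm5 came next in males, with -0.35 ± 0.19 and -0.28 ± 0.15.

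For the sex by preference term 20 members were positive and 11 negative (46.1% of all genes were negative), with a median of 0.07, which reversed to -0.09 with the length and GC slopes as covariates. Cx3cr1 (-0.23 ± 0.18) and Selplg (-0.22 ± 0.19) followed Fcrls, and edgeR, DESeq2 and limma-voom called 0 members, as against 0.00613% of all genes in DESeq2 and 0% in the others. Fcrls alone lay at an unadjusted p under 0.05, against 3.24% of all genes.

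**Figure D5:**
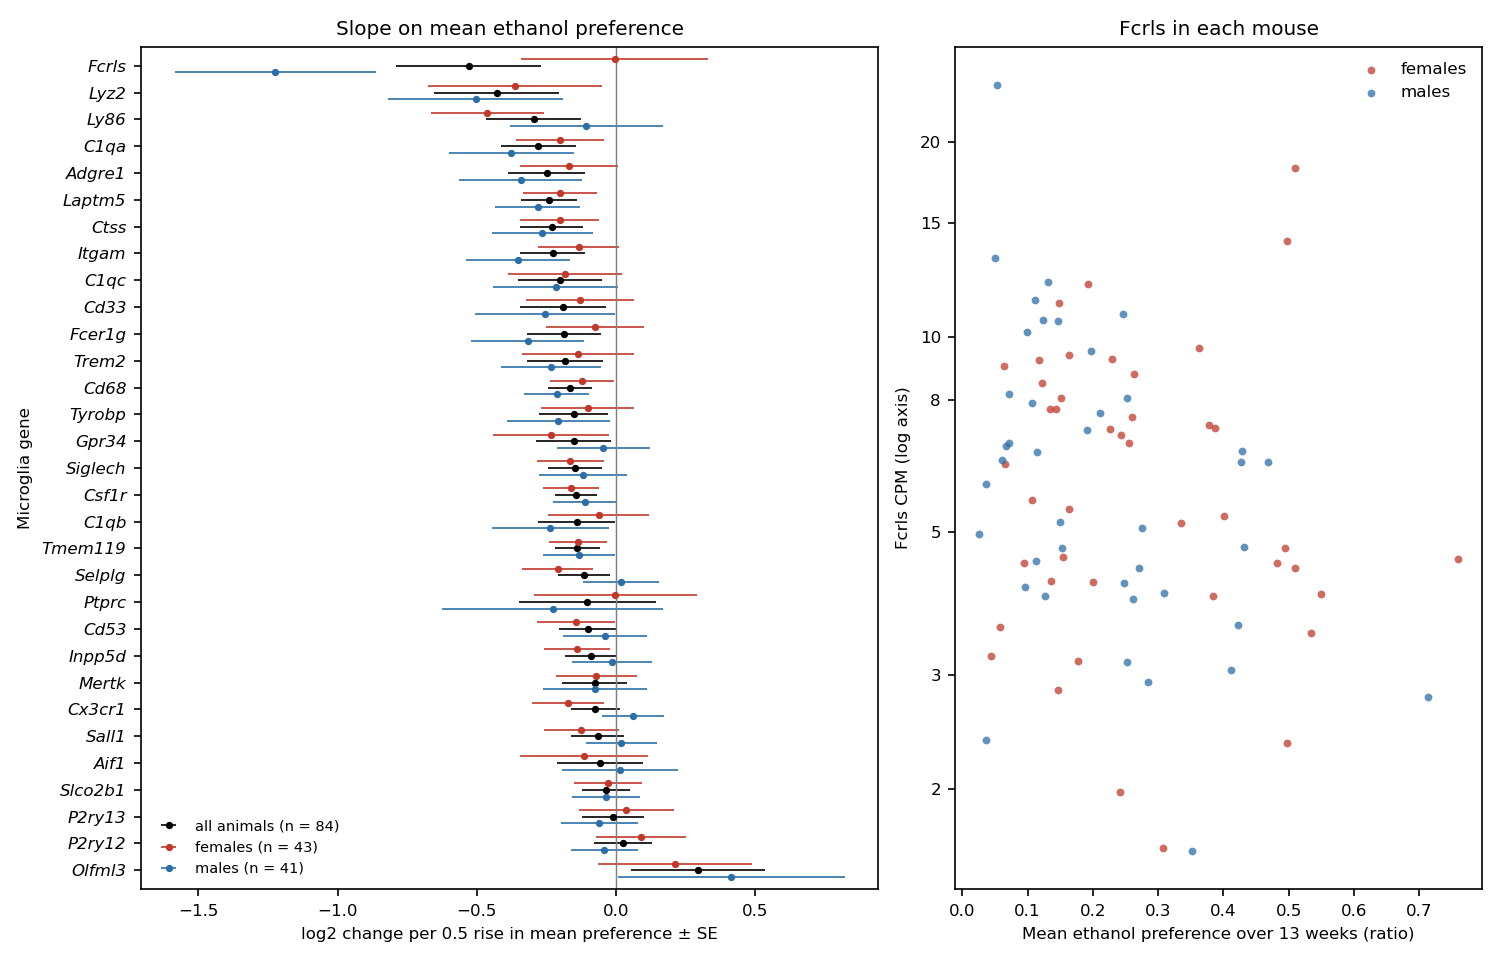
Left, the slope of each gene on mean preference as log2 change per 0.5 rise ± SE in females, in males and in all animals. Right, CPM of Fcrls (log axis) in each mouse against its mean preference. Slopes lie mostly below 0 (29 of 31 in all animals), and Fcrls stands lowest in males (-1.22 ± 0.36).

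Preference in week 1 and in week 13 asked whether expression goes with the first choice or with the latest drinking. With week 1 preference 29 slopes were negative in all animals (48.9% of all genes), with a median of -0.13, and 7 members lay at an unadjusted p under 0.05 (3.25% of all genes). They were led by Fcrls (-0.60 ± 0.24), Laptm5 (-0.23 ± 0.09) and Itgam (-0.27 ± 0.11), each with an edgeR adjusted p of 0.9999. In females 23 were negative (47.9% of all genes), led by Itgam (-0.23 ± 0.15), Ly86 (-0.32 ± 0.21) and Cx3cr1 (-0.19 ± 0.14), and 0 lay at an unadjusted p under 0.05 (2.26% of all genes). Their median of -0.06 turned to 0.02 without the 5 libraries highest in choroid plexus genes. In males 28 were negative (50% of all genes), with 6 at an unadjusted p under 0.05 (5.17% of all genes). That count was 3 (3.43% of all genes) without male replicate 39 and 2 (2.11%) with length and GC slopes as covariates. Fcrls had a slope of -1.14 ± 0.31 there (edgeR unadjusted p = 0.000779, adjusted 0.656), and -0.99 without male replicate 39 and -0.94 without male replicate 32. C1qa (-0.49 ± 0.18) and Laptm5 (-0.31 ± 0.12) came next.

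With week 13 preference 29 slopes were negative in all animals (50.3% of all genes), with a median of -0.15 and 5 members at an unadjusted p under 0.05 (6% of all genes). Cd68 had the smallest p (-0.18 ± 0.06, unadjusted 0.00469 and adjusted 0.664 in edgeR), followed by Ly86 (-0.37 ± 0.13) and Tyrobp (-0.23 ± 0.10). In females 29 were negative (50.5% of all genes), led by Ly86 (-0.38 ± 0.16), Cd68 (-0.17 ± 0.09) and Trem2 (-0.28 ± 0.15). That of Trem2 was 0.02 once the neuron and ependymal scores were covariates. In males 25 were negative (50.7% of all genes), led by Fcrls (-0.79 ± 0.29), P2ry12 (-0.20 ± 0.09) and Cd68 (-0.18 ± 0.09). In females 1 member and in males 2 lay at an unadjusted p under 0.05 (8.67% and 3.74% of all genes). By edgeR, DESeq2 and limma-voom, 0 members passed in any of the fits of week 1 and week 13. For week 1 edgeR called 0.0306% of all genes in all animals and 0.0368% in males, and DESeq2 0.0245% and 0.0184%. Without male replicate 39, and likewise with length and GC slopes as covariates, edgeR called 0 genes in both of these fits (282 and 559 genes at an unadjusted p under 0.05 without that library, 655 and 345 with the slopes), against 5 in all animals and 6 in males with it. For week 13 edgeR called 0.0368% in females, and DESeq2 1.26% in females and 0.0123% in males, while limma-voom called 0% in each of these fits.

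Slopes of other cells' markers also leaned to 1 side. Lists of other glia leaned below 0 on mean preference as the members did, with 14 of 16 genes of myelinating oligodendrocytes (median -0.16), 11 of 12 of oligodendrocyte precursors (median -0.14) and 14 of 16 of astrocytes (median -0.07). All 18 medium spiny neuron genes had negative slopes on mean preference (median -0.35), 23 of 24 ependymal genes had positive ones (median 0.92) and so had 14 of 14 choroid plexus genes (median 1.35), with 0 past the threshold in each list by edgeR and 0, 16 and 2 of them at an unadjusted p under 0.05. Over all genes 50.8% of these slopes were below 0 and 3.94% lay at that p. With the medium spiny neuron and ependymal scores as covariates the members' median slope was -0.09 in all animals with 25 negative, against -0.15 and 29 without them, and in females it was -0.03, against -0.14. For week 13 in females it was -0.0008 with 16 of 31 negative. In males the median was -0.15 with these covariates, against -0.13 without them. Without the 5 libraries highest in choroid plexus genes it was -0.11 in all animals, with 27 negative.

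Genes around the list gave few further values. Of 75 other microglia and myeloid genes, 59 sloped below 0 on mean preference with a median of -0.12, against 50.8% of all genes below 0. At an unadjusted p under 0.05 lay 6 of the 75, against 3.94% of all genes. Plcg2, a phospholipase of immune receptors, had a slope of -0.28 ± 0.10, Arhgap45 -0.26 ± 0.11 and Fermt3, an integrin activator, -0.24 ± 0.10. Of 27 activated microglia genes 16 were negative (median -0.09), and the 3 with the smallest p were Lgals3bp (0.65 ± 0.25), the cholesterol hydroxylase gene Ch25h (-0.76 ± 0.30) and Lgals3 (0.79 ± 0.44). Of 22 ligands and controls 11 were negative (median 0.002), with complement C2 (-0.78 ± 0.25), Tgfb2 (0.57 ± 0.24) and Gas6, the ligand of Mertk (0.21 ± 0.13), first. All 9 had an edgeR adjusted p of 0.9995, and 0 genes of the 3 lists passed in either direction. At an unadjusted p under 0.05 there were 2 of 27 activated microglia genes and 2 of 22 ligands and controls, against the same 3.94% of all genes. DESeq2 and limma-voom called 0 of all genes in this fit.

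The sexes were compared with females over males. In edgeR 22 members were higher in females (52.3% of all genes were lower in females) and 0 passed, as also with DESeq2 and limma-voom, against 0.0919% of all genes in edgeR, 0.116% in DESeq2 and 0.0735% in limma-voom. Lyz2 had the smallest p. Its values, given above, averaged 11.0 ± 5.26 CPM (SD, n = 43) in females and 7.90 ± 3.42 CPM (SD, n = 41) in males, a log2 difference of 0.48 ± 0.15 (edgeR unadjusted p = 0.00200, adjusted 0.837). It was the 1 member at an unadjusted p under 0.05, against 3.81% of all genes. Aif1, the IBA1 protein by which microglia are stained, differed by 0.17 ± 0.10 and Olfml3 by 0.26 ± 0.16. Aif1 had 1.95 to 12.5 CPM (median 5.92) in females and 2.62 to 10.3 CPM (median 5.33) in males, ranges that overlapped nearly throughout. Of the border macrophage markers 8 of 10 tested were also higher in females, with a median of 0.23 and 0 called. Their part in the Lyz2 value was not tested.

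Between the 4 runs of sample-sheet numbers, 2 members passed, against 3543 of 16320 genes (21.7%), a share of members below that of all genes. Slco2b1, an organic anion transporter, averaged 15.8 ± 1.88, 18.6 ± 3.58, 19.1 ± 4.07 and 16.8 ± 2.18 CPM in the runs (SD, n = 18, 18, 17 and 31, edgeR adjusted p = 0.0180). Cd33 averaged 2.33 ± 0.615, 3.00 ± 1.03, 3.05 ± 0.741 and 2.43 ± 0.714 CPM (adjusted p = 0.0367 in edgeR). Both were higher in the middle runs, with ranges that overlapped. P2ry12 came next and did not pass (edgeR adjusted p = 0.0592). DESeq2 and limma-voom called 2 members each, against 24.3% and 19.7% of all genes. The call of Cd33 was lost without the filter on low counts (edgeR adjusted p = 0.0603) and with length and GC slopes as covariates (0.179), while its adjusted p was 0.0232 to 0.0415 under the others. P2ry12 passed without the 5 libraries highest in choroid plexus genes (edgeR adjusted p = 0.0199), and had 0.0511 to 0.416 under the others. Slco2b1 passed under each of them (0.00522 to 0.0387).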

How the data were processed

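RNA of the CeA of 84 mice was sequenced, 1 library each; libraries were stranded and poly(A)-selected, per the labels' protocols. Per the labels, the authors deposited raw counts per gene. Build GRCm38 (mm10) and the tools STAR, Subread, featureCounts 1.6.0, FastQC and DESeq2 stand in the submitters' processing notes. How strand was handled in counting, and which annotation release was used, is not given in the sources used here. A total of 3 columns of undetermined reads were not used.

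Sex and weekly preference came from the labels, and replicate numbers follow the order of listing. Genes were kept by filterByExpr in edgeR 4.0.16 (minimum count 10, minimum total 15, sexes as groups), scaled by TMM and fitted with the robust quasi-likelihood F-test in 12 fits. P-values were Benjamini-Hochberg adjusted over all 16320 genes, and calls lie under 0.05. A slope is the log2 change for a preference 0.5 higher, with sex as a term where both sexes were fitted. DESeq2 1.42.0 and limma-voom (limma 3.58.1) were alternatives. Pearson and Spearman correlations used log2 CPM with a prior count of 2 and 100000 2-sided permutations. The fits and correlations were tested on simulated data. P-values measure the spread between animals, some of them of 1 family.

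The members and gene lists were chosen with earlier results of these data known. Described in full were the 6 members with the highest mean RPKM, the 4 most and 6 least like the mean of the others, the 3 with the smallest p in each fit and any past the threshold, with 5 companions for each of the 6 least alike and the 3 genes with the smallest p in the lists of other microglia genes, activated microglia genes and ligands.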

Additional observations from a re-analysis of the deposited data

How the results depend on the processing

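Of 249 alternatives of counts and medians, 112 set 0 called members against 0 and say little about stability. Of the other 137, all but 9 kept the direction and lay within the limits set. Counts had to lie within 1.5 times. Median slopes had to keep their sign and differ by less than the members' median SE (for the comparison of runs, the SD over members). The median r of pairs had to differ by less than its SD over the 4 runs, 0.0238. The count of members at an unadjusted p under 0.05 differed from the reported one by over 1.5 times in 36 of 119 alternatives. It ran from 1 to 8 for mean preference in all animals (5 as reported), 0 to 3 in females (1) and 1 to 3 in males (1). The 8 came with run as a covariate (4.15% of all genes at that p) and with rank of preference (3.29%). The 3 in females came with length and GC slopes (9.31%) and the 3 in males with run as a covariate (1.39%). For week 1 the count ran from 4 to 7 in all animals (7) and 2 to 8 in males (6), and was 0 throughout in females. The 8 in males came with rank of preference (6.62% of all genes) and the 2 with length and GC slopes (2.11%). For week 13 the count ran from 2 to 10 in all animals (5), 0 to 6 in females (1) and 1 to 4 in males (2). The 10 came with run as a covariate (11.0% of all genes at that p) and with intake (12.7%), and the 6 in females with intake (12.6%). The 4 in males came with run as a covariate (4.8%) and with length and GC slopes (4.34%). Negative members numbered 13 of 31 in week 1 females without the choroid-rich libraries, against 23 as reported. Of 357 alternatives of named members 353 kept direction and side of the threshold. Outside the comparison of runs 0 members were called under any setting, so in those fits only the direction could differ. The alternatives were DESeq2, limma-voom, size factors, no filter on low counts, run as a covariate, rank of preference, intake, libraries left out, and neuron and ependymal scores as covariates, with length and GC slopes, and Fcrls libraries left out, added after seeing the data. Reversed were the median slope on week 1 preference in females (0.0245 without the 5 libraries highest in choroid plexus genes), Trem2 in week 13 females (0.0169 with the scores as covariates) and the median sex by preference term (-0.0874 with length and GC slopes as covariates). The count of members called between runs was 1 without the filter, 4 without the choroid-rich libraries and 1 with length and GC slopes. The median r of pairs, 0.266 as reported, was 0.233 without the choroid-rich libraries and 0.355 after removal of length and GC slopes. It was 0.359 without the 6 members least like the rest, a setting added after seeing the data. As those 6 were picked for their low r, a higher median followed from the choice and says nothing about stability. Among the 5 nearest genes of each of those 6, 14 of 30 remained after run means were removed. The cause of the other changes was not tested. No paired analysis was possible because the replicate numbers follow the order of listing and pair no animals. Depth limits Cd33, Fcrls and Ptprc most, whose lowest counts in a library were 35, 49 and 44.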
